A study of Mus musculus with 12 samples.

Results

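Transcripts of 10 genes of the Notch pathway were followed across 12 expression arrays of the mouse cell line A2C12. They comprised the ligands Dll1, Dll4, Jag1 and Jag2, the sugar transferase Lfng, the receptors Notch1, Notch2 and Notch3, and the target genes Hes1 and Hey1. A probe set is a group of array probes that together report 1 transcript. The 10 genes, of 18194 measured, had 18 probe sets of 45101 that the array's annotation pairs with only 1 of these symbols. For each gene the probe set with the highest mean over the 12 arrays was taken as the lead. The leads were thus chosen by level, and the levels that chose them are given only as a description. The rule has no threshold that a gene had to pass.

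A2C12 was derived from a lung tumour of a double transgenic c-myc/c-raf mouse with a C57BL/6 background, and all 4 groups come from this 1 line and share both transgenes. Cells were stained with the DNA dye Hoechst and sorted into a side population (SP), whose cells pump the dye out and stay dim, and the remaining non-SP cells. Reserpine, which blocks the pumps, served in the dye assay. Either fraction came from untreated cells or from cells given a monoclonal antibody against mouse EpCAM, an adhesion protein of epithelial cells, at 100 µg/ml for 48 h. The untreated cells are labelled as having received nothing, so the comparison is of antibody with no antibody. Each of the 4 groups, untreated non-SP, untreated SP, treated non-SP and treated SP, holds 3 biological replicates, and 3 arrays against 3 limit the precision throughout.

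Notch receptors are cut into signalling fragments when a ligand on a neighbouring cell pulls on them, and the freed intracellular part joins the DNA-binding protein RBPJ to switch on genes such as those of the Hes and Hey families. Delta-like and Jagged proteins are the ligands, and fringe enzymes such as Lfng add sugars to the receptor that favour Delta-like over Jagged ligands. In the lung, Notch signalling guides the choice between secretory and ciliated cells in the airways and the sprouting of blood vessels, where Dll4 is best known.

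Values are log2 array levels, on which a difference of 1 is a doubling. A level of 1 probe set cannot be set against that of another as an amount of transcript, so levels are compared between arrays and, as a rough mark of detection, with the yardstick that follows. As a yardstick for signal without a transcript, the 39 olfactory receptor genes on the array had a median level of 4.48 and a 95th percentile of 5.78. By their mean over 12 arrays, 8 of the 10 Notch genes lay above 5.78, as did 11798 of all 18194 genes (64.8%). The exceptions were Dll4 at 5.33 and Lfng at 5.10, the same 2 genes whose levels differed most between antibody and no antibody.

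For these 2 genes the promoter sequences are shown, because they are the members whose lead probe sets differed most between treated and untreated cells, in opposite directions. Each window runs from 250 bases before to 50 bases after the transcription start in RefSeq (mouse build GRCm38.p6), 5′ to 3′ on the strand of the gene. Capitals mark the core of the RBPJ site, TGGGAA, or its reverse complement TTCCCA. The window of Lfng lies at chr5:140607091-140607390 on the plus strand and that of Dll4 at chr2:119325534-119325833 on the plus strand.

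Lfng: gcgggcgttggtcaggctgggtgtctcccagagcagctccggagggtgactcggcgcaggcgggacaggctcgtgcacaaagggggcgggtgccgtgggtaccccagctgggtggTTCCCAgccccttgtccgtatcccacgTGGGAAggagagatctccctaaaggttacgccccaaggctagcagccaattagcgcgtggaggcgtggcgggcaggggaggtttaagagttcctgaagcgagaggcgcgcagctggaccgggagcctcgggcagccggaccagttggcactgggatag

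Dll4: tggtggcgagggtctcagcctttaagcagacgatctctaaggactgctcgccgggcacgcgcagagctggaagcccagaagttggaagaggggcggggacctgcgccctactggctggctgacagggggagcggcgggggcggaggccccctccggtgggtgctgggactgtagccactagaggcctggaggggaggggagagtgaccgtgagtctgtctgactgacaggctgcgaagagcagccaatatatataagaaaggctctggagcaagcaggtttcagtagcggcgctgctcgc

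The Lfng window held the core 2 times, at -135 from the start on the minus strand and at -108 on the plus strand, 1 of them within the longer form GTGGGAA. The Dll4 window held no match. Windows were found for 8 of the 10 genes, 9 in all, and the core was present in 1 of these 9. Over all 32851 mouse promoter windows of the same length, 25.6% held the core on either strand, 3.79% held it 2 or more times and 6.38% held GTGGGAA. A match of this short motif is a description of the sequence and was not tested as a binding site. Hes1 and Hey1 had no window in the table used.

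The levels of each gene on every array show little separation of the groups except for Dll4 and Lfng (plot of the Notch genes on 12 arrays).

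**Figure D1:**
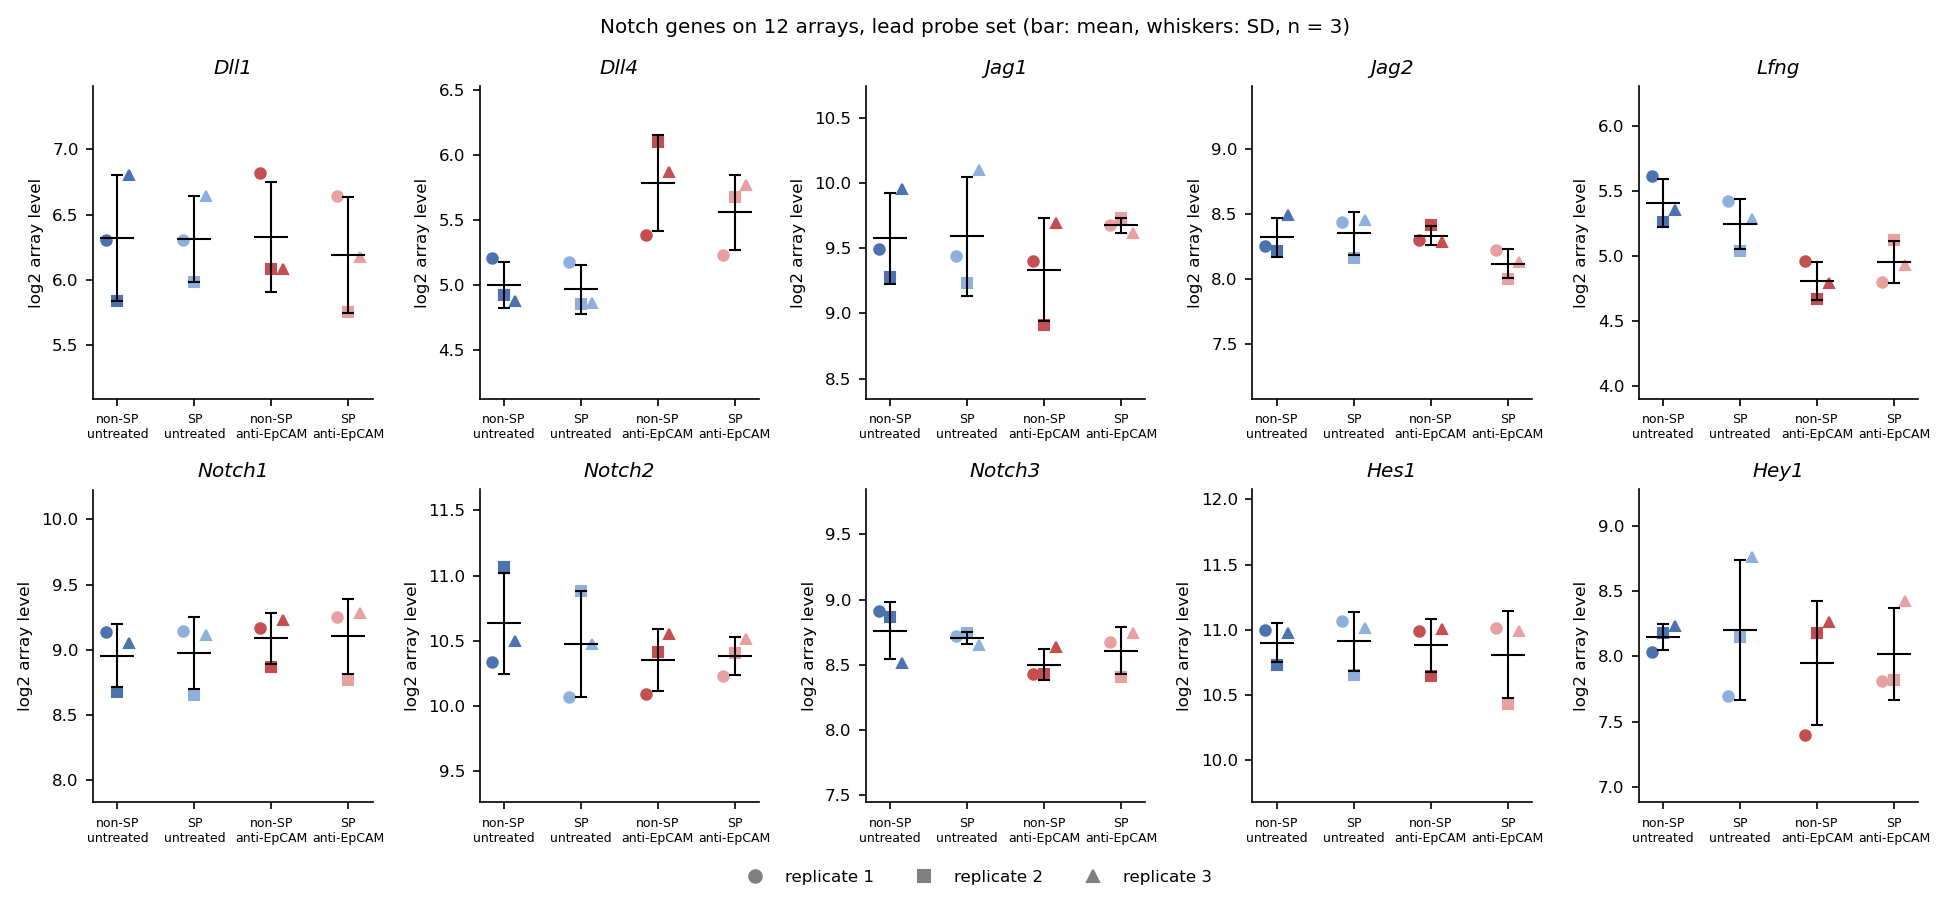
Log2 array level of the lead probe set of the 10 Notch genes (vertical axes, each spanning the same number of log2 units) in the 4 groups, with circles, squares and triangles for replicates 1, 2 and 3, a bar at the mean and whiskers of 1 SD (n = 3). All treated arrays lie above all untreated ones of the same fraction for Dll4, and below them in non-SP cells for Lfng.

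Dll4, the Delta-like ligand of vessel sprouting, read 5.21, 4.93 and 4.88 on the untreated non-SP arrays (replicates 1, 2 and 3) and 5.18, 4.86 and 4.87 on the untreated SP arrays. After the antibody it read 5.38, 6.10 and 5.87 in non-SP cells and 5.23, 5.68 and 5.77 in SP cells. All 6 treated arrays were above all 6 untreated ones, but replicate 1 of either treated fraction stood close to the untreated level, and only treated non-SP replicates 2 and 3 passed the olfactory yardstick of 5.78. The group means were 5.00 ± 0.18 (SD, n = 3) in untreated non-SP, 4.97 ± 0.19 in untreated SP, 5.79 ± 0.37 in treated non-SP and 5.56 ± 0.29 in treated SP cells. The order of the means was treated non-SP, treated SP, untreated non-SP and untreated SP. Neighbours in that order within a treatment overlapped, while the step between treated and untreated cells did not.

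The difference of Dll4 between antibody and none was 0.78 ± 0.21 (SE) in non-SP cells and 0.59 ± 0.21 in SP cells. Relative to the median shift of all genes, which was -0.10 in non-SP and -0.12 in SP cells, these were 0.88 and 0.71. The 39 olfactory genes, which lie in the same range of levels, had median antibody differences of 0.05 and -0.25. Dll4 was known from earlier results of these data to differ here, so these values are a description. The second Dll4 probe set, of nearly the same mean level (5.30), did not show it. It read 5.70, 5.41 and 5.12 in untreated non-SP, 5.67, 5.04 and 5.49 in untreated SP, 5.63, 5.50 and 4.64 in treated non-SP and 5.03, 5.50 and 4.86 in treated SP cells. Its antibody differences were -0.15 ± 0.28 in non-SP and -0.27 ± 0.28 in SP cells, of the opposite sign, with overlapping arrays. Over the 12 arrays, each centred on its own median, the 2 Dll4 probe sets correlated at -0.11 (Pearson's r across arrays that share cultures and label preparation, given without a test).

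Lfng, the fringe enzyme that modifies Notch receptors, read 5.61, 5.26 and 5.35 on the untreated non-SP arrays and 4.96, 4.67 and 4.79 on the treated ones. In SP cells it read 5.42, 5.04 and 5.28 without and 4.80, 5.12 and 4.93 with the antibody. The treated non-SP arrays were all below the untreated ones, while in SP cells treated replicate 2 lay above untreated replicate 2 and the groups overlapped. Group means were 5.41 ± 0.18 and 4.81 ± 0.15 in non-SP cells, and 5.25 ± 0.19 and 4.95 ± 0.16 in SP cells (SD, n = 3). All 12 values lay below the olfactory yardstick of 5.78. From the highest mean to the lowest the order was untreated non-SP, untreated SP, treated SP and treated non-SP, and each neighbouring pair overlapped.

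The antibody difference of Lfng was -0.60 ± 0.17 (SE) in non-SP cells and -0.29 ± 0.17 in SP cells. Relative to the median of all genes the first was -0.50. With every value below the yardstick, and most of those of Dll4 too, these are differences in array signal and no fold of transcript is given. With each array centred on its median the difference in SP cells shrank to -0.10, and with quantile normalisation to -0.06, against -0.46 and -0.49 in non-SP cells. The second Lfng probe set, with a mean of 4.73, gave differences of -0.11 ± 0.23 and -0.04 ± 0.23, and it correlated with the lead at 0 over the 12 centred arrays. Both Dll4 and Lfng thus rest on 1 of their 2 probe sets (plot of both probe sets of Dll4 and Lfng).

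**Figure D2:**
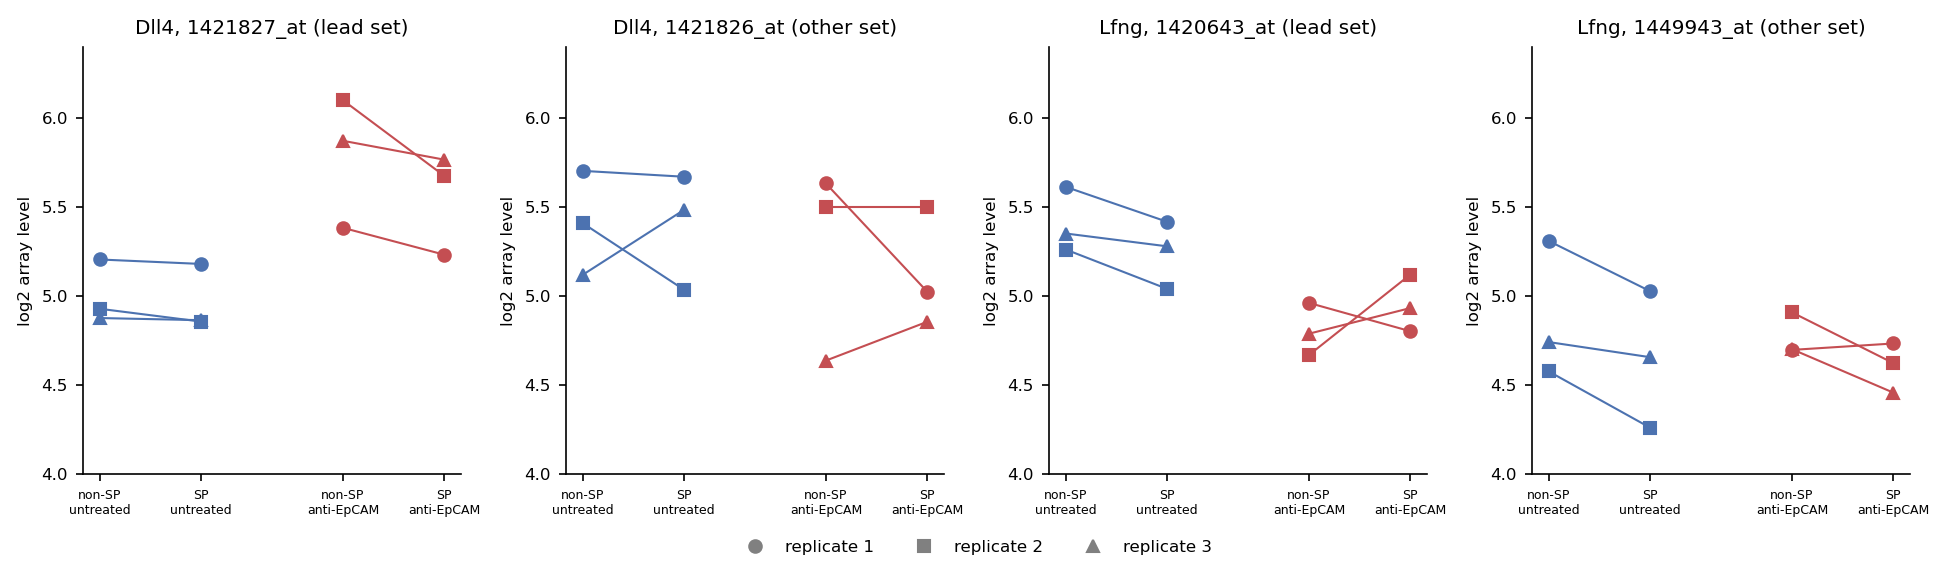
Log2 array level (vertical axis) of both probe sets of Dll4 and of Lfng in the 4 groups, with circles, squares and triangles for replicates 1, 2 and 3 and lines joining the SP array to the non-SP array that shares its replicate number and treatment. The Dll4 lead set lies higher on all treated arrays and the Lfng lead set lower on the treated non-SP arrays, whereas treated and untreated arrays overlap for the other set of either gene.

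Dll4 and Lfng correlated at -0.66 over the 12 centred arrays, and at -0.01 once each group's mean was taken out. The pair was singled out for opposite antibody differences, so a negative value over both treatments follows from that choice. The value without group means rests on 3 arrays per group and cannot show that replicates hold no relation. Within a treatment, SP and non-SP arrays with the same replicate number resembled each other. Such a pair is called a culture below, which is read from the data since no label says so. With both arrays of a culture averaged, 3 cultures against 3, Dll4 was 4.99 ± 0.18 without and 5.67 ± 0.32 (SD) with the antibody, a difference of 0.69 ± 0.20 (SE), and Lfng was 5.33 ± 0.18 and 4.88 ± 0.02, a difference of -0.45 ± 0.16. All treated cultures were higher for Dll4, as for 0.616% of all genes, and all were lower for Lfng, as for 6.95%. The other 8 genes overlapped between treatments in this average. In limma's fit of these averages 0% of the 18194 genes passed the threshold, with an adjusted p of 0.991 for each of the 10 genes.

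The remaining ligands did not separate treated from untreated cells by their lead probe sets. Dll1, a Delta-like ligand, read 6.31, 5.84 and 6.81 in untreated non-SP, 6.31, 5.98 and 6.64 in untreated SP, 6.82, 6.09 and 6.08 in treated non-SP and 6.65, 5.76 and 6.18 in treated SP cells. Its arrays spread widely within every group, and its antibody differences were 0.01 ± 0.30 in non-SP and -0.12 ± 0.30 in SP cells. Jag1, a Jagged ligand that acts in many developing tissues, read 9.49, 9.28 and 9.96 in untreated non-SP, 9.44, 9.24 and 10.10 in untreated SP, 9.40, 8.91 and 9.69 in treated non-SP and 9.68, 9.74 and 9.62 in treated SP cells. The treated SP arrays of Jag1 lay within 0.06 (SD) of their mean of 9.68, while the other groups had SDs of 0.35, 0.46 and 0.40. Its antibody differences were -0.24 ± 0.26 and 0.09 ± 0.26.

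Jag1 had a further pair of probe sets, with means of 7.05 and 5.70, which correlated with the lead at 0.72 and 0.55 over the centred arrays. The dimmer one, whose mean lay below the olfactory yardstick, was lower on all treated than on all untreated SP arrays, by -0.32 ± 0.17. Relative to the median shift of all genes this was -0.20. By lead probe sets, such a separation held for 8.04% of all genes. The Jag1 lead and the brighter set did not show it. Jag2, the second Jagged ligand, read 8.26, 8.21 and 8.49 in untreated non-SP, 8.44, 8.16 and 8.46 in untreated SP, 8.30, 8.42 and 8.29 in treated non-SP and 8.23, 8.0 and 8.13 in treated SP cells. Treated SP cells had the lowest mean, 8.12 ± 0.11, and all 3 of their arrays lay below all 3 treated non-SP arrays, as for 1.78% of all genes. The antibody differences of Jag2 were 0.01 ± 0.15 in non-SP and -0.23 ± 0.15 in SP cells. Its other probe set, with a mean of 5.44, gave -0.15 ± 0.23 and -0.09 ± 0.23.

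Among the receptors, Notch1, Notch2 and Notch3 overlapped between treatments in both fractions. Notch1 read 9.14, 8.68 and 9.05 in untreated non-SP, 9.15, 8.66 and 9.12 in untreated SP, 9.17, 8.87 and 9.23 in treated non-SP and 9.26, 8.77 and 9.29 in treated SP cells. Replicate 2 was the lowest in each group. Within each replicate number and fraction the treated Notch1 array was above the untreated one, although such arrays were not paired over all genes. The antibody difference was 0.13 ± 0.21 in either fraction by the lead probe set. With each array centred on its median it was 0.274 in non-SP and 0.325 in SP cells. With quantile normalisation it was 0.295 and 0.209. The other probe set (mean 6.98, correlation with the lead 0.92) gave 0.28 ± 0.26 in non-SP and 0.54 ± 0.26 in SP cells.

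Notch2 read 10.34, 11.07 and 10.50 in untreated non-SP, 10.07, 10.88 and 10.48 in untreated SP, 10.09, 10.42 and 10.55 in treated non-SP and 10.23, 10.41 and 10.52 in treated SP cells. Replicate 2 was the highest and replicate 1 the lowest of both untreated groups. Its antibody differences were -0.28 ± 0.24 and -0.09 ± 0.24. Notch3, whose lead probe set is of a type that can also bind related transcripts, read 8.91, 8.87 and 8.51 in untreated non-SP, 8.72, 8.75 and 8.65 in untreated SP, 8.43, 8.43 and 8.64 in treated non-SP and 8.68, 8.41 and 8.74 in treated SP cells. Its antibody differences were -0.26 ± 0.16 and -0.10 ± 0.16, and its other probe set, not of that type, gave -0.30 ± 0.28 and -0.05 ± 0.28. With each array centred on its median, the differences of Notch2 and Notch3 in SP cells turned to 0.10 each.

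The target genes Hes1 and Hey1 overlapped between treatments in both fractions. Hes1, a transcriptional repressor and direct Notch target, read 11.001, 10.73 and 10.98 in untreated non-SP, 11.07, 10.65 and 11.01 in untreated SP, 10.99, 10.65 and 11.01 in treated non-SP and 11.01, 10.43 and 10.99 in treated SP cells. Replicate 2 was the lowest array of every group, and the other 8 arrays lay between 10.98 and 11.07. The antibody differences of Hes1 were -0.02 ± 0.20 and -0.10 ± 0.20, with 95% intervals from -0.45 to 0.41 and from -0.53 to 0.33. After centring they were 0.12 and 0.09, so no direction is given for Hes1. Hey1, a related repressor, read 8.03, 8.18 and 8.24 in untreated non-SP, 7.70, 8.15 and 8.76 in untreated SP, 7.40, 8.18 and 8.27 in treated non-SP and 7.81, 7.82 and 8.43 in treated SP cells. It varied widely among replicates, and its antibody differences were -0.20 ± 0.29 and -0.18 ± 0.29. The 95% intervals of Hey1 ran from -0.825 to 0.427 and from -0.81 to 0.442. The interval in non-SP cells includes the Lfng difference there, -0.60, so these values do not show that Hey1 stayed level.

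**Figure D3:**
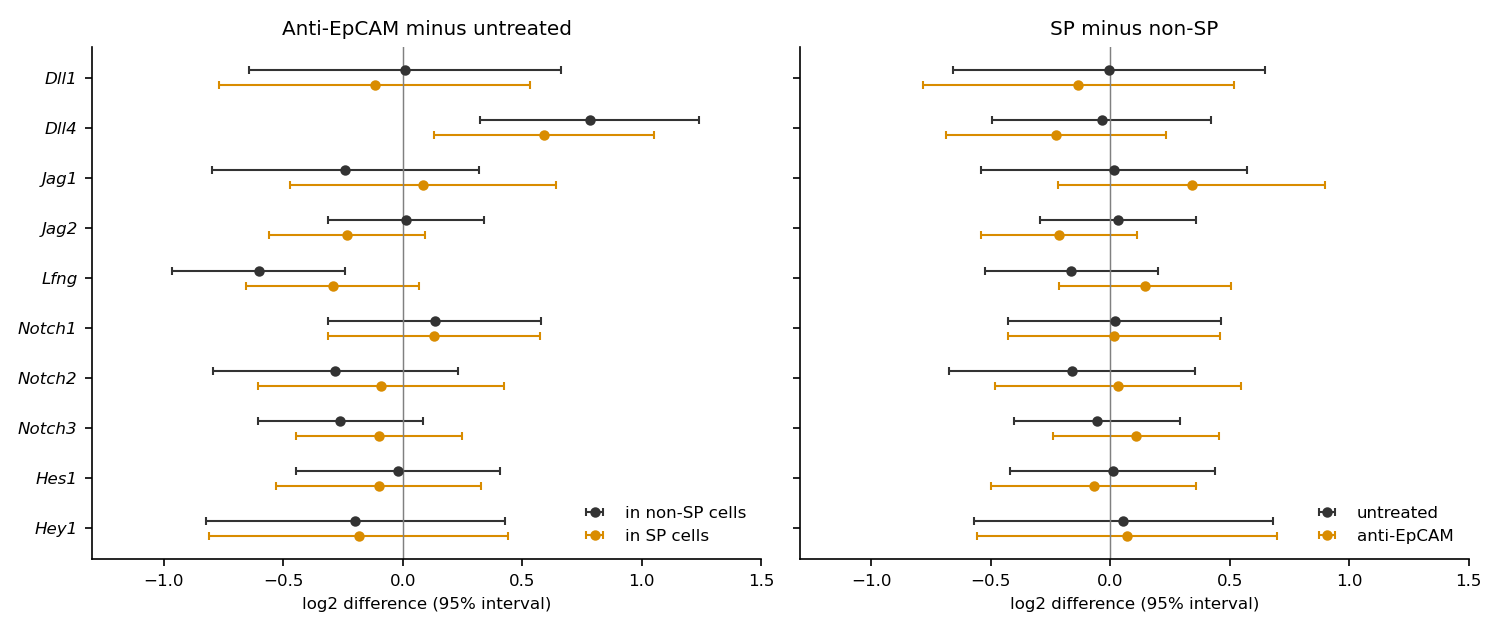
Log2 differences (horizontal axes) of the lead probe sets with 95% intervals from limma's fit over 12 arrays, for antibody against none on the left and SP against non-SP on the right. The intervals are not adjusted for the number of genes, and in the left panel those of Dll4 in both fractions and of Lfng in non-SP cells lie to one side of 0, while all others on both sides include it.

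Set against all genes, the antibody comparison in non-SP cells called 0 of 18194 genes (0%) at an adjusted p under 0.05 by limma, with a lowest adjusted p of 0.988. At an unadjusted p under 0.05, 0.517% of genes were higher, Dll4 among them, and 2.7% were lower, Lfng among them. All 3 treated arrays were above all 3 untreated ones for 1.19% of genes, including Dll4, and below them for 6.62%, including Lfng. In SP cells the fit also called 0%, with a lowest adjusted p of 0.776. There 0.11% of genes were higher at an unadjusted p under 0.05, Dll4 again among them, and 4.48% were lower, with no Notch gene of the 10. All treated SP arrays were above all untreated ones for 0.434% of genes, including Dll4, and below them for 8.04%, with none of the 10. The 2 antibody comparisons come from paired fractions and do not count as independent observations of Dll4. The median difference of the 10 genes was -0.11 in non-SP and -0.10 in SP cells, beside -0.10 and -0.12 for all genes.

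The second question was whether SP cells differ from non-SP cells in Notch genes. In untreated cells none of the 10 passed the test. The fit called 0% of all genes, and at an unadjusted p under 0.05 0.0165% of genes were higher and 0.0055% lower, with none of the 10. All SP arrays were above all non-SP arrays for 1.24% of genes and below them for 1.13%, again with none of the 10. The largest differences of SP from non-SP cells among the 10 were those of Lfng, -0.16 ± 0.17 (SE), and Notch2, -0.16 ± 0.24. Those of Dll1, Jag1, Jag2, Notch1 and Hes1 were between -0.01 and 0.03, with 95% intervals reaching at most from -0.66 to 0.65, that of Dll1. These values ignore the pairing of arrays within a culture. With that pairing as a replicate block, the interval of Dll1 ran from -0.26 to 0.25. The SEs of Lfng and Notch2 were then 0.12 and 0.10. In limma's paired fit 152 genes were higher and 153 lower at an unadjusted p under 0.05, with none of the 10.

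In treated cells the fit called 0% of genes as well, and 0.297% were higher and 0.401% lower in SP cells at an unadjusted p under 0.05, with none of the 10 in this fit without pairing. With the SP and non-SP arrays of a culture paired as a replicate block, 1.71% were higher and 5.49% lower, and Dll4 was among the lower genes, at an adjusted p of 0.628. SP arrays were all above non-SP arrays for 0.572% of genes and all below for 1.78%, the latter including Jag2. By their lead probe sets Jag2 differed by -0.22 ± 0.15 (SE) and Jag1 by 0.34 ± 0.26, opposite ways by values that did not pass the test. The other Jag2 probe set gave 0.09 ± 0.23, and the other Jag1 sets 0.29 ± 0.27 and -0.04 ± 0.17. Dll4 differed by -0.23 ± 0.21 and Lfng by 0.15 ± 0.17.

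The fractions can also be compared within each culture (plot of fraction differences by replicate number). For Dll4 in treated cells the SE was 0.10 with this pairing and 0.21 without it. By its lead probe set, the SP minus non-SP difference of Dll4 was -0.03, -0.07 and -0.01 in untreated cultures (replicates 1, 2 and 3). In treated ones it was -0.15, -0.43 and -0.11. Each untreated difference was smaller than each treated one, the largest coming from treated replicate 2. The share of all genes with such an order is not given here. The interaction of Dll4, described below, was -0.19 ± 0.30 (SE). The other Dll4 probe set gave both signs, with -0.03, -0.37 and 0.36 in untreated and -0.61, 0 and 0.22 in treated cultures. By the lead probe set Jag2 differed by -0.08, -0.42 and -0.16 in treated cultures and by 0.18, -0.05 and -0.04 in untreated ones. Its other probe set gave 0.42, -0.05 and -0.10 in treated cultures. Lfng differed by -0.20, -0.22 and -0.07 in untreated and by -0.16, 0.45 and 0.14 in treated cultures. Jag1 differed by -0.06, -0.05 and 0.15 in untreated and by 0.27, 0.82 and -0.08 in treated ones.

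**Figure D4:**
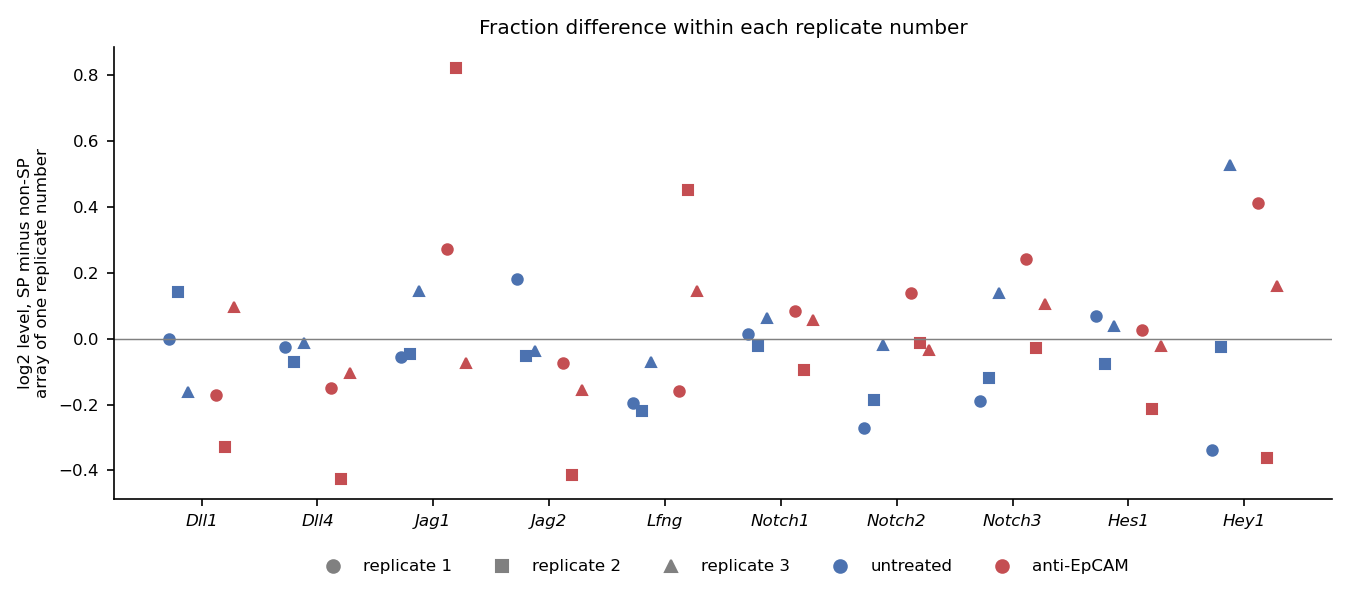
Log2 level of the SP array minus that of the non-SP array of the same replicate number and treatment (vertical axis) for the lead probe sets of the 10 Notch genes, with blue for untreated and red for anti-EpCAM cultures and circles, squares and triangles for replicates 1, 2 and 3. Treated replicate 2 gives the value farthest from 0 for Dll4 (-0.43), Jag1 (0.82) and Jag2 (-0.42), and its value for Lfng is 0.45.

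For 7 of the 10 genes the value farthest from 0 came from treated culture 2, namely Dll4, Jag1, Jag2 and Lfng, and with smaller values Dll1 (-0.33), Hes1 (-0.22) and Notch1 (-0.10). Both of its arrays also had the highest ratio of 3′ to 5′ actin signal, a sign of RNA quality, with log2 values of 0.895 and 1.027 against at most 0.733 on the other 10 arrays. The part of RNA quality in these differences was not tested. Without both arrays, the treated SP against non-SP difference of Jag1 went from 0.34 to 0.10, that of Jag2 from -0.22 to -0.12, that of Dll4 from -0.23 to -0.13 and that of Lfng from 0.15 to -0.01. Without them the antibody differences of Dll4 were 0.62 (non-SP) and 0.53 (SP), and those of Lfng -0.53 and -0.38.

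The interaction asks whether the antibody difference itself differs between fractions. It called 0% of genes, and at an unadjusted p under 0.05 0.0385% were positive and 0.198% negative, with none of the 10. For Dll4 the antibody difference in SP cells minus that in non-SP cells was -0.19 ± 0.30 (SE; 95% interval -0.84 to 0.46). For Lfng it was 0.31 ± 0.24 (-0.20 to 0.82), for Jag1 0.33 ± 0.36 and for Jag2 -0.25 ± 0.21. With arrays of a culture paired as a replicate block, the intervals were -0.51 to 0.13 for Dll4 and -0.09 to 0.70 for Lfng. The SEs of Jag1 and Jag2 were then 0.22 and 0.15. In limma's paired fit 255 genes were positive and 748 negative at an unadjusted p under 0.05, with none of the 10. These intervals do not show that the antibody acts alike in both fractions.

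Notch1 and Hes1 moved together across arrays without following the groups (plot of Notch1 against Hes1). On the 4 arrays numbered 2, Notch1 read between 8.66 and 8.87 and Hes1 between 10.43 and 10.73. On the other 8 arrays Notch1 was at least 9.05 and Hes1 at least 10.98, so the arrays fell into separate clusters by replicate number. Such a separation of all arrays numbered 2 below all others held for 578 of 18194 genes (3.18%), and the opposite for 78 (0.429%). Their Pearson correlation over the centred arrays was 0.88, and 0.96 with group means taken out, values that the clusters set. Among 18193 genes Notch1 ranked 115 in its likeness to Hes1 over the centred arrays and 16 with group means taken out. The closest over the centred arrays were Trappc5 (0.98), Prpf38a (0.97) and Psmc5 (0.97), none of them in the Notch lists used here. The other Notch1 probe set correlated with Hes1 at 0.73. Replicate numbers did not pair untreated with treated arrays over all genes, so what the arrays numbered 2 share is not given by the labels.

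**Figure D5:**
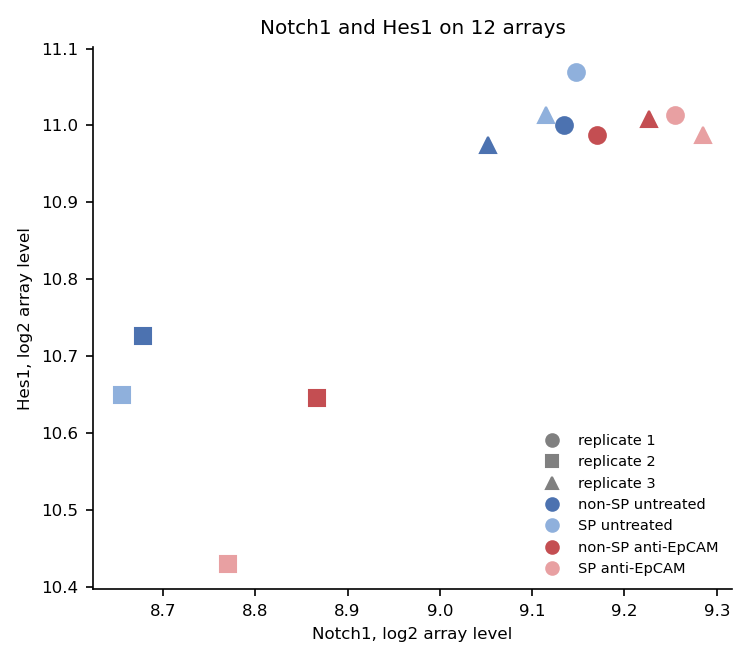
Log2 array level of Notch1 (horizontal axis) against Hes1 (vertical axis) on the 12 arrays, coloured by group, with circles, squares and triangles for replicates 1, 2 and 3. The 4 squares, replicate 2 of each group, lie between 8.66 and 8.87 for Notch1 and between 10.43 and 10.73 for Hes1, apart from the other 8 arrays.

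Replicate number also marked other receptors and targets. Notch2 was lower on all 4 arrays numbered 1 than on the other 8, as were 57 genes in all (0.313%), and Hey1 was higher on all 4 numbered 3, as were 119 genes (0.654%). Of the 45 pairs of the 10 genes, Dll1 and Hes1 correlated at 0.64, Notch2 and Notch3 at 0.62, Notch2 and Hey1 at 0.61 and Jag2 and Lfng at -0.69 over the 12 centred arrays. These are descriptions of arrays that share cultures.

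Genes with a pattern like that of Dll4 or Lfng were sought over the centred arrays, with clone and predicted gene names left out. The 3 most like Dll4 were Clec4a3 (r = 0.942), Ccdc73 (0.926) and Vmn1r47 (0.924). They had mean levels of 3.17, 3.32 and 3.03, all below the olfactory median of 4.48. Their antibody differences were small, 0.34 and 0.22 for Clec4a3, 0.23 and 0.15 for Ccdc73 and 0.12 and 0.17 for Vmn1r47 in non-SP and SP cells. Most like Lfng were Wnt6 (0.836), a secreted Wnt ligand, Galr2 (0.798), a galanin receptor, and Hook1 (0.766), with mean levels of 6.53, 5.10 and 4.12. Wnt6 differed by -0.45 and -0.31, Galr2 by -0.64 and -0.33 and Hook1 by -0.54 and -0.41. Of these 6 genes, Wnt6 alone lay above the olfactory yardstick.

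The rest of the pathway was read from 6 lists with 62 genes, of which 57 were measured and 49 lay above the yardstick. In each of the 5 comparisons 0 of the 57 passed the adjusted threshold. At an unadjusted p under 0.05 there was 1 gene, Hes7, lower in SP cells after the antibody (-0.48 ± 0.20, SE), in a comparison where 4.48% of all genes were lower at that p. In non-SP cells Hes7 differed by 0.00 ± 0.20. The median difference of the 57 was -0.10 in non-SP and -0.09 in SP cells for the antibody, 0 and -0.01 for SP against non-SP in untreated and treated cells, beside -0.10, -0.12, 0.01 and -0.03 for all genes. Single genes ranged from -0.56 to 0.20 for the antibody in non-SP and from -0.51 to 0.37 in SP cells.

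Among the genes that act on receptor sugars and on ligands, Pofut1, which adds the fucose that Lfng extends, differed by -0.56 (non-SP) and -0.36 (SP), and Mib1, a ubiquitin ligase for ligands, by -0.46 and -0.15. Poglut1, which adds glucose to the receptor, differed by -0.10 and -0.22. All 9 genes of that list had negative differences in non-SP cells and 8 of 9 in SP cells, with medians of -0.15 and -0.11. Beside the medians of all genes, -0.10 and -0.12, 4 of the 9 lay above and 5 below in non-SP cells, and 5 above and 4 below in SP cells. Of the proteases that cut Notch, Adam10 differed by -0.32 and -0.13 and the gamma-secretase subunit Aph1b by -0.29 and 0.01, and Adam17 by -0.10 and -0.14. Of the nuclear factors, the coactivator Maml2, at a mean level of 4.28 below the yardstick, differed by 0.05 and -0.24 (each ± 0.23, SE). The RBPJ partner Snw1 differed by -0.06 and -0.24, and the corepressor Spen by 0.09 and -0.19. Of the regulators that restrain or modify Notch, Dtx3l, a ubiquitin ligase, differed by -0.46 and -0.10, and Numbl, related to the Notch inhibitor Numb, by -0.28 and -0.05. Lnx1, a ubiquitin ligase that targets Numb, differed by -0.32 and -0.19.

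Of the other target genes, Heyl differed by -0.16 (non-SP) and -0.51 (SP), each ± 0.35 (SE), at a mean level of 5.72. Hes6 differed by -0.20 and 0.01. The remaining receptor, Notch4, differed by -0.14 and -0.36 at a mean level of 4.39. The ligand-like proteins Dlk1 and Cntn1 differed by -0.31 and -0.22 (each ± 0.23, SE) and by -0.15 and -0.43 (each ± 0.22). Their mean levels were 5.59 and 4.60, so these genes, like Heyl and Notch4, lay below the olfactory yardstick. Between SP and non-SP cells Dner, a ligand-like protein, differed by 0.59 in untreated and 0.19 in treated cells (each ± 0.36, SE). Tle1, a corepressor, differed by 0.18 and 0.47 (each ± 0.34). The ubiquitin ligases Mib1, Neurl1b and Dtx1 differed by 0.06 and 0.37, by -0.33 and 0.01 and by 0 and -0.40. Ncstn, a subunit of the gamma-secretase, differed by -0.18 and -0.20, Hes7 by 0.11 and -0.37 and Hes6 by 0 and 0.20. Notch4 (0.03 and -0.19), Adam10 (0.03 and 0.21), Maml2 (0.02 and -0.27) and Numbl (-0.25 and -0.02) complete the genes named by their p for the fractions. None of these single values passed the adjusted threshold.

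Marker genes of the cells were read beside these results. Of 15 lung epithelial markers 8 lay above the yardstick, among them Krt19 (11.7), Abca3 (9.01), Epcam (8.11), Sftpb (7.44) and Cdh1 (6.35). The lung markers Nkx2-1 (5.55), Sftpa1 (5.04), Sftpc (5.64) and Sftpd (5.15) lay below it, so the surfactant genes of the list lay on both sides of it. Of 11 fibroblast and mural markers 9 were above it, with Acta2 at 12.8 and Col1a2 at 12.6, and of 14 leukocyte markers 7, with Csf1r at 9.98 while Ptprc, which marks all leukocytes, was at 3.42. Endothelial cells are a main source of Dll4 in tissues. Of 12 endothelial markers 4 lay above the yardstick, namely Egfl7 (8.46), Kdr (6.70), Erg (6.08) and Esam (6.07). Among those below it were Pecam1 (4.55), Cdh5 (4.74) and Tie1 (4.09). The summed level of the 12 on the linear scale was 724 to 901 in untreated and 801 to 964 in treated non-SP cells, and 727 to 971 and 700 to 867 in untreated and treated SP cells. Such a sum is weighted towards probe sets with a strong signal and is compared only between groups. Of the 12 markers, Emcn alone had antibody differences near those of Dll4, 0.76 and 0.53, at a mean of 4.17, and the median of the 12 was 0.06 in non-SP and -0.27 in SP cells. The part of such cells in the Dll4 values was not tested. In bulk samples fewer cells of a type and less RNA per cell cannot be told apart.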

How the data were processed

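The 12 samples have 1 array each, with groups and replicate numbers taken from the labels. The deposited table holds log2 levels that the authors made with RMA, per the submitters' processing notes. Neither the software nor any later scaling is stated in the sources used here. Array medians ran from 5.72 to 6.06. Of 45101 probe sets, 34958 had 1 gene symbol in the platform annotation of 2016, 932 had several and 9211 none. The highest probe set per symbol gave 18194 genes, 1568 of them by a probe set open to related transcripts. The 64 control probe sets were among the 45101 and were held to the same rule on symbols. No filter on level was applied.

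Differences were fitted with limma 3.58.1 in R 4.3.3 (lmFit, then eBayes with no trend, 1 mean per group and 8 residual degrees of freedom) without a replicate block. Tests were two-sided, with Benjamini-Hochberg adjustment over all 18194 genes and a threshold of 0.05. The procedure was tested on simulated data first, with added differences larger than those of the 10 genes and with no pairing of arrays. That test does not show the power for differences of the size described here. The median 95% interval reached 0.46 to either side, and 0.65 for the interaction. An exact permutation test of 3 against 3 cannot go below 0.1. The 10 genes, the lists and the tests were chosen with earlier results of these data known. Named are all 10 genes, of each pathway list the genes with the lowest unadjusted p (up to 3 for the antibody and 2 for the fractions), and the 3 genes most like Dll4 and Lfng. From the last, clone and predicted gene names were left out. Of 126 list genes 119 had a probe set with that symbol alone; those without one were not analysed here.

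Whether replicate numbers pair the arrays was checked by correlating deviations from the group means over all genes. SP with non-SP arrays of a given number correlated at 0.656, 0.844 and 0.55 in untreated and 0.751, 0.618 and 0.562 in treated cells, and untreated and treated arrays of one number at -0.00541, -0.14 and -0.379 (non-SP) and -0.06, -0.245 and -0.00838 (SP). The first are treated as pairs, from the data and not from the labels. Alternatives were centring on the array median, quantile normalisation, a filter on level, other probe set choices, a replicate block and leaving out arrays. Figures used Python 3.11.15, pandas 2.3.3 and matplotlib 3.10.9.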

Additional observations from a re-analysis of the deposited data

How the results depend on the processing

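The count of genes past the adjusted threshold was 0 in each of the 5 comparisons under every alternative run. With a replicate block it was 0 as well. For the fractions and the interaction the block pairs the SP and non-SP array of a culture. For the antibody comparisons it joins all arrays of one number, although untreated and treated arrays were not paired by the correlations. In limma's paired fit the adjusted p was 0.628 for Dll4 (-0.23 ± 0.10, SE), Jag1 (0.34 ± 0.16) and Jag2 (-0.22 ± 0.11) in treated SP against non-SP cells. Unadjusted calls in treated SP against non-SP cells went from 54 higher and 73 lower without to 312 and 999 with the block, Dll4 among the 999. Scaling turned the split of unadjusted antibody calls, from 94 higher and 491 lower to 560 and 88 after centring and 416 and 169 after quantile normalisation in non-SP cells, and from 20 and 815 to 284 and 174, and 168 and 233, in SP cells.

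For 50 differences of the 10 genes, 405 values under alternatives other than leaving out 1 array were compared. Of these, 24 had the other sign and 8 moved by 1 SD or more. Of 600 values with 1 array left out, 70 had the other sign and 0 moved by 1 SD. Many values in both sets could not change, so these counts do not measure stability. An array outside a comparison leaves its difference as it was, as do the filter on level and the replicate block. The Dll1 difference between untreated fractions stayed at -0.006 without any single treated array. Leaving out 1 array of so small a group also shifts its mean by less than that group's SD. The antibody difference of Dll4 ranged from 0.62 to 0.98 in non-SP and from 0.49 to 0.75 in SP cells with 1 array left out, and that of Lfng from -0.68 to -0.50 and from -0.40 to -0.21. The omission of both treated arrays numbered 2 was chosen after seeing the data. Signal near the olfactory yardstick limits what can be read for Dll4 and Lfng.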
